A study of Mus musculus with 82 samples.

Results

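The genes described here encode the proteins of the mitochondrial ribosome. They were chosen by name: every gene on the array whose current symbol is Mrpl or Mrps followed by a number. The array represented 74 such genes among 12393 genes, with 127 probe sets, and 33 of the genes had more than 1 probe set. A gene with several probe sets was read from the one whose mean level over the 82 arrays was highest. There were 49 genes of the large subunit and 24 of the small subunit, and Mrps36, whose product is known as a subunit of the 2-oxoglutarate dehydrogenase complex, was kept under the rule and counted in neither. Of the symbols of the family, 4 were not represented by a probe set of their own, namely Mrpl30, Mrpl53, Mrps10 and Mrps27. Mrpl47 and Mrpl33 were singled out because earlier results of these data had placed them above the other genes of the family in captured cells, so their difference between tissue types is given as a description and not as a test.

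The samples came from mice of the strain BALB/c.iMycEμ, a model of plasma cell tumours that carries a Myc transgene in the immunoglobulin heavy chain locus, aged at least 8 weeks and injected intraperitoneally with pristane, an oil that induces granulomas in the abdomen. Plasma cells, picked by their methyl green pyronin stain, were cut from frozen granuloma sections with a laser, and RNA was taken from these captured cells or from whole, undissected sections. Study 2 held 30 arrays of captured cells from 15 specimens and 15 arrays of whole granuloma from 15 specimens, at days 7, 17, 33, 49 and 105, with 3 specimens a day. Study 1 held 25 arrays of captured cells from 15 specimens at days 7, 17, 33, 46 and 104 and 12 arrays of whole granuloma from 8 specimens at the same days except day 46. All mice carried the transgene and received pristane, so that no untreated or transgene-free group enters, and whole sections also contain plasma cells. Arrays that share a specimen code and tissue type were averaged, which gave 53 averages from 33 codes, of which 20 codes had both tissue types. Letters after a code were ignored, and 4 of the 15 codes of study 2 join arrays with different letters. The labels do not state that each code is a separate mouse, so the p-values measure the spread between these specimens.

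Mitochondria keep a small genome that encodes core subunits of the respiratory chain and ATP synthase, and a dedicated ribosome translates them. Its proteins are all encoded in the nucleus, made in the cytosol and imported, and they assemble with mitochondrial rRNA into a small subunit, which reads the messenger RNA, and a large subunit, which joins the amino acids. Some of the proteins descend from bacterial ribosomal proteins and others are specific to mitochondria. Plasma cells are the antibody-secreting cells of the immune system.

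The values are log2 expression levels. Their array medians differed by tissue type and study as deposited: 5.31 to 5.64 in captured cells and 7.11 to 7.33 in whole granuloma of study 2, and 4.97 to 5.11 and 5.73 to 5.82 in study 1. Tissue types were therefore compared after quantile normalization, which gives all arrays 1 distribution, and days within a tissue type were compared on the deposited values. The arrays also differed in the gap between probes at the 3′ end and the 5′ end of control transcripts, a sign of RNA integrity and amplification, which was 4.14 ± 0.90 (SD, n = 30 arrays) in captured cells and 1.61 ± 0.13 (SD, n = 15) in whole granuloma of study 2, and 4.49 ± 0.68 (SD, n = 25) and 3.19 ± 0.36 (SD, n = 12) in study 1. One array, array 4 of captured cells at day 49 of study 2, stood apart: its correlation with the median profile of its tissue type was 0.26, against 0.88 for the next lowest array, and the counts and the specimen values that moved most with it are given with and without it. Of the marker genes, all 4 of adipocytes, all 5 of smooth muscle and both of mesothelium were lower in captured cells in both studies, and macrophage markers were lower in 5 of 7 in study 2, with 1 higher, and in 7 of 7 in study 1. Plasma cell markers were higher in 5 of 8 in study 2 and in 3 of 8 in study 1 and lower in none, but their mean level over the 8 genes overlapped between captured cells (8.41 to 10.39) and whole granuloma (8.07 to 10.29) of study 2, and in study 1 (9.10 to 9.94 and 8.63 to 9.66). Fibroblast markers were lower in 3 of 4 and higher in 1 in study 2 and lower in 2 in study 1, and their mean level stayed high in captured cells, with a median of 10.96 against 11.35 in whole granuloma of study 2 and 11.26 against 12.08 in study 1. Neutrophil markers were higher in 2 of 3 and lower in 1 in study 2 (median level 8.21 against 8.06) and lower in 2 in study 1 (8.16 against 8.89). Macrophage markers were not absent from captured cells, with a mean level over 7 genes of 7.93 to 10.87 in study 2 and 7.96 to 10.68 in study 1. In whole sections, fewer cells of a type and less RNA per cell cannot be told apart, and the part of these markers and of the 3′ to 5′ gap in the results below was not tested beyond the values given.

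Promoters of nuclear genes for mitochondrial proteins are known to carry short words bound by the activators NRF1, GABPA and YY1. RefSeq promoter windows (assembly GRCm38.p6, 250 bases before to 50 after the start, 1 window a gene) were matched by symbol for 65 of the 74 genes. They were searched on both strands for GCATGCGC, the core of the NRF1 site, CCGGAAGT, an ETS site as bound by GABPA, AAGATGGC, a YY1 site, and CACGTG, the E-box bound by Myc with Max. The NRF1 word was in 8 of the 65 windows (12.3%) and in 4.49% of 9887 windows of genes on the array. The ETS word was in 11 (16.9%) against 6.59%, and the YY1 word in 11 (16.9%) against 3.92%. The E-box was in 5 (7.69%) against 9.17%. At least 1 of the NRF1, ETS and YY1 words was in 28 of the 65 windows (43.1%) and in 14.1% of all windows. Of the 8 genes with the NRF1 word, Mrpl22, Mrpl32, Mrpl33 and Mrpl39 were higher in captured cells of study 2. Mrpl9 (-0.62), Mrpl10 (-0.76), Mrpl17 (-0.51) and Mrps18b (-0.44) were lower, on the quantile-normalized log2 scale, and are not printed. The 5 stretches below run from 100 bases before to 10 bases after the start, 5′ to 3′ along the gene's strand. All 5 genes were higher in captured cells in every specimen with both tissue types, so they do not represent all windows. Capitals mark the words found.
Mrpl47: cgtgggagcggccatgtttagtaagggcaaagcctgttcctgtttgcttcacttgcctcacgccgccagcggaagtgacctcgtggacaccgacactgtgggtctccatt
Mrpl33: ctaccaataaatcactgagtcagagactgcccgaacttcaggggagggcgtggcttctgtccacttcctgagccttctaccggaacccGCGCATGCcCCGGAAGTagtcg
Mrpl22: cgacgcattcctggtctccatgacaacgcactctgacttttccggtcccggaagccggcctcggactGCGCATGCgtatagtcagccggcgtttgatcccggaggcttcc
Mrpl36: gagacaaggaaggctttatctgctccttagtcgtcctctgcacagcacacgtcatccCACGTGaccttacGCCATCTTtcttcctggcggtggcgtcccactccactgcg
Mrpl32: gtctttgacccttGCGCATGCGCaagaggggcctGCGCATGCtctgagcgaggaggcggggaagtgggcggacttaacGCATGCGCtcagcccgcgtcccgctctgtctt
These lie at chr3:32736746-32736855 on the minus strand, chr5:31613851-31613960 on the plus strand, chr11:58171564-58171673 on the plus strand, chr13:73330909-73331018 on the plus strand and chr13:14613028-14613137 on the minus strand. The Mrpl33 stretch holds an NRF1 word and an ETS word 1 base apart, directly at the start. The Mrpl36 stretch holds an E-box and a YY1 word, that of Mrpl22 holds 1 NRF1 word, and that of Mrpl32 holds 4 matches to the NRF1 word, of which an overlapping pair reads on both strands. The whole window of Mrpl47 holds none of the 4 words as an exact match, and near matches were not searched in any window. Genes with and without one of the NRF1, ETS and YY1 words had these median captured minus whole differences on the quantile-normalized log2 scale: 0.45 over the 28 with and 0.50 over the 37 without in study 2, and 0.74 and 0.73 in study 1.

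Mrpl47 and Mrpl33 both encode proteins of the large subunit with a bacterial counterpart. Both were higher in captured cells than in whole granuloma on the quantile-normalized scale, Mrpl33 by less in study 2. In study 2, quantile-normalized Mrpl47 was 9.91, 9.68 and 10.04 in the captured specimens of day 7, 9.56, 10.08 and 9.82 at day 17, 9.93, 9.42 and 10.04 at day 33, 9.57, 10.26 and 10.34 at day 49, and 9.84, 9.70 and 9.56 at day 105. In whole granuloma it was 7.42, 7.42 and 7.29 at day 7, 6.12, 7.27 and 6.95 at day 17, 5.84, 6.00 and 5.20 at day 33, 7.64, 7.99 and 6.01 at day 49, and 6.50, 6.96 and 6.36 at day 105. The value of 10.26 at day 49 rests on the array that stood apart and was 9.47 without it. All 15 captured specimens lay above all 15 of whole granuloma, and the lowest whole sections were those of day 33. In study 1, captured specimens ranged from 8.68 over a median of 9.41 to 9.84 (n = 15) and whole granuloma from 5.13 over 6.87 to 7.26 (n = 8), again without overlap. The captured minus whole difference of Mrpl47 was 3.12 (SE 0.16) in study 2 and 2.69 (SE 0.23) in study 1, on the log2 scale, and lay between 1.93 and 4.84 in the 15 specimens of study 2 with both tissue types and between 2.15 and 3.89 in the 5 of study 1. It was smaller but of the same direction on the deposited scale (1.41 and 1.95), where the median gene fell by 1.68 in study 2 and by 0.60 in study 1.

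Mrpl33 was 8.71, 8.42 and 8.90 in the captured specimens of day 7 of study 2, 8.65, 8.43 and 8.68 at day 17, 8.25, 8.24 and 8.45 at day 33, 8.36, 8.50 and 8.73 at day 49, and 8.34, 7.99 and 8.13 at day 105, on the quantile-normalized log2 scale. In whole granuloma it was 7.38, 7.07 and 7.84 at day 7, 7.14, 7.40 and 8.02 at day 17, 6.54, 6.49 and 6.84 at day 33, 7.63, 7.60 and 6.64 at day 49, and 6.66, 7.08 and 7.03 at day 105. The 8.50 at day 49 was 8.05 without the array that stood apart. The groups met at their edges over all days, with 1 whole section of day 17 above 1 captured specimen of day 105, and within each day they did not overlap. In study 1 captured specimens ranged from 8.09 over 8.65 to 9.01 (n = 15) and whole granuloma from 5.60 over 6.12 to 6.22 (n = 8), far apart. The difference was 1.30 (SE 0.10) in study 2 and 2.54 (SE 0.14) in study 1, and it was negative on the deposited scale in study 2 (-0.44) and positive there in study 1 (1.76). A further probe set of Mrpl33 was near the floor of the array, above the array median in 0 of the 53 averages, and gave 0.31 and 0.52. Mrpl47 has a single probe set.

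**Figure D1:**
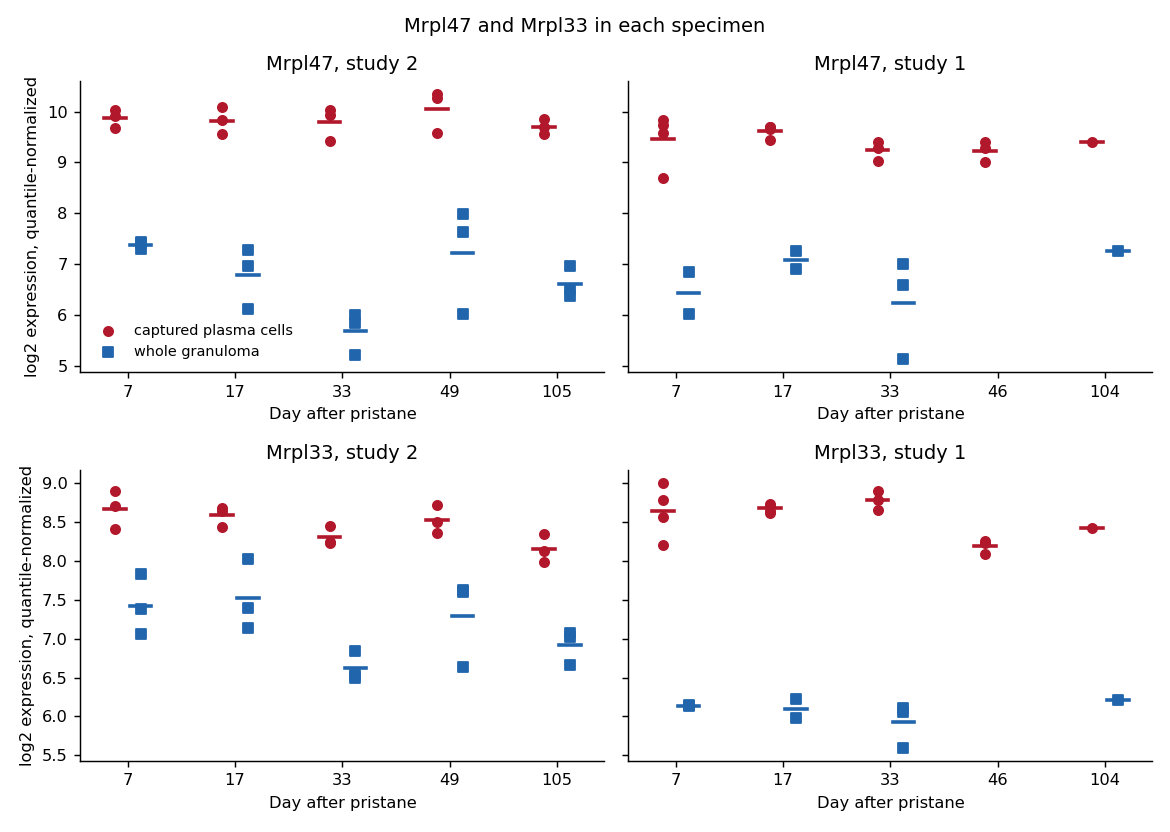
Quantile-normalized log2 expression (vertical axis) of Mrpl47 (top) and Mrpl33 (bottom) by day after pristane (horizontal axis) in study 2 (left) and study 1 (right). Each point is 1 specimen average, circles are captured plasma cells, squares are whole granuloma and short lines are the means of a day. Captured Mrpl47 stays between 8.68 and 10.34, and whole granuloma of study 2 has its lowest values, down to 5.20, at day 33. In study 1 a single whole section of day 33 lies at 5.13, with the others of that day at 6.58 and 7.00.

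The genes whose levels followed Mrpl47 most closely over the 53 quantile-normalized averages were Alkbh4 (Pearson r = 0.94), Thap2 (0.93), Ofd1 (0.92), Ndc80 (0.92) and Naa38 (0.92). Within study and tissue type, after the mean of each was taken off, these correlations were 0.71, 0.64, 0.57, 0.38 and 0.82. Of the family, Mrpl33 (0.89), Mrpl36 (0.89) and Mrpl22 (0.85) were most alike, against a median of 0.54 over the other genes of the family. For Mrpl33 the closest genes were Gm12338 (0.92), Mrpl47 (0.89), Rer1 (0.89), Prkrip1 (0.89) and Nxt1 (0.89), and the median over the family was 0.58. These points share specimens and the gap between tissue types, and the correlations are descriptions only. The neighbours on the chromosome, by the order of protein-coding genes in the RefSeq table, were Actl6a and Ndufb5 for Mrpl47 and Slc4a1ap and Rbks for Mrpl33. Slc4a1ap was higher by 0.51 (SE 0.09, limma adjusted p = 2.3e-06) and 0.80 (SE 0.12, adjusted p = 7.1e-07). Ndufb5, a subunit of respiratory complex I, was higher in captured cells by 0.79 (SE 0.10, limma adjusted p = 1.3e-08) in study 2 and by 0.64 (SE 0.15, adjusted p = 0.00029) in study 1, and Rbks, ribokinase, by 0.82 (SE 0.11, limma adjusted p = 2.3e-08) and 0.84 (SE 0.16, adjusted p = 2e-05), on the quantile-normalized log2 scale. Actl6a, a subunit of chromatin remodelling complexes, was higher by 1.07 (SE 0.18, limma adjusted p = 3e-06) in study 1 and had a difference of 0.24 (SE 0.13, adjusted p = 0.089) in study 2. On the deposited scale all 4 were lower in study 2, at -0.59 for Ndufb5, -1.02 for Rbks, -1.23 for Actl6a and -1.29 for Slc4a1ap, and past the threshold. Babam2, the second gene after Mrpl33 in that order, was lower in captured cells on the quantile-normalized scale. Its differences were -1.67 (SE 0.13, limma adjusted p = 1.5e-14) in study 2 and -0.71 (SE 0.18, adjusted p = 0.00098) in study 1. Of all genes tested, 34.4% were higher in study 2 and 31.5% in study 1.

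Over the whole family, most genes were higher in captured plasma cells than in whole granuloma once the arrays shared 1 distribution. In study 2, 45 of the 74 genes were higher, where 34.4% of the 8592 genes tested were, and 11 were lower, where 35.4% were (limma, Benjamini-Hochberg adjusted p under 0.05). In study 1, 53 of 74 were higher, where 31.5% of all genes were, and 2 were lower, where 29% were. The median difference of the family was 0.45 in study 2 and 0.73 in study 1, and that of all genes was -0.02 and 0.06. All 74 genes had passed the filter on low values, so no gene of the family is missing from these counts. Without the array that stood apart, 48 genes were higher and 10 lower in study 2, where 38.3% and 35.5% of all genes were, and 60 and 2 in study 1, where 35.6% and 31.5% were. On the deposited scale the median gene of the family fell by 1.15 in study 2, where the median of all genes fell by 1.68, and was 0.094 higher in study 1, where that of all genes fell by 0.60. With the 3′ to 5′ gap of the controls as a covariate, 9 genes of the family were higher and 13 lower in study 2 (1178 and 2241 of all genes), with a median of -0.30 against -0.29 over all genes. With that covariate and without the array that stood apart, 11 were higher and 1 lower (827 and 656 of all genes), with a median of 0.45 against 0.01.

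Genes of both subunits were higher in captured cells. Of the 49 genes of the large subunit, 26 (53.1%) were higher and 9 (18.4%) lower in study 2, where 34.4% and 35.4% of all genes were, with a median difference of 0.43, and 32 were higher and 1 lower in study 1, with a median of 0.72. Of the 24 genes of the small subunit, 18 (75%) were higher and 2 (8.33%) lower in study 2, with a median of 0.46, and 20 were higher and 1 lower in study 1, with a median of 0.77. Genes with a bacterial counterpart and genes specific to mitochondria had medians of 0.45 (44 genes) and 0.41 (29 genes) in study 2 and of 0.74 and 0.65 in study 1. Mrps36 had differences of 0.59 (SE 0.14, limma adjusted p = 0.00039) and 0.63 (SE 0.20, limma adjusted p = 0.0067). Without Mrpl47 and Mrpl33, 43 of 72 genes were higher in study 2 and 51 of 72 in study 1, with medians of 0.44 and 0.73.

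In both studies together, 35 genes of the family (47.3%) were higher in captured cells in each, where 18.5% of all genes were, and 1 gene (1.35%) was lower in each, where 18% of all genes were. The difference had the same sign in both studies for 60 of the 74 (81.1%) and for 68.8% of all genes tested. Apart from Mrpl47 and Mrpl33, the 6 that were highest on average were Mrpl44, Mrpl57, Mrps24, Mrpl41, Mrpl20 and Mrpl36.

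**Figure D2:**
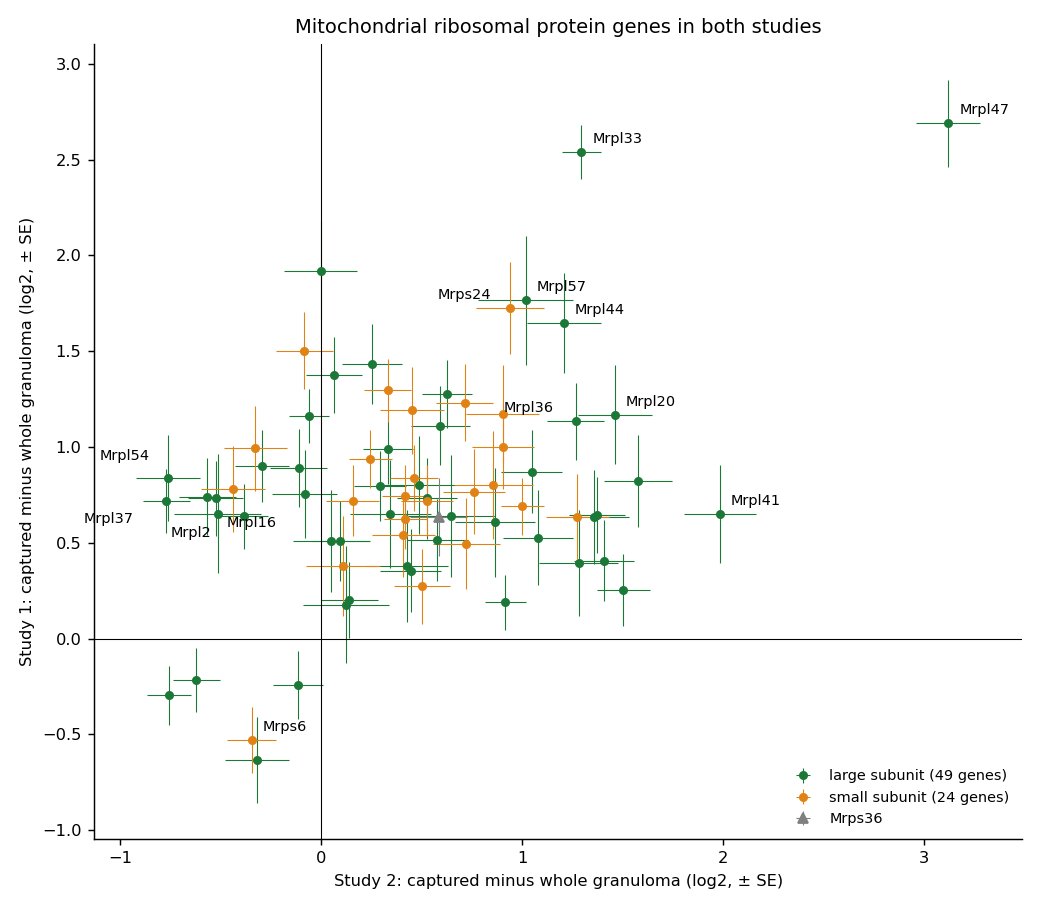
Captured minus whole difference of each of the 74 genes on the quantile-normalized log2 scale in study 2 (horizontal axis) and study 1 (vertical axis), with bars of 1 SE. Circles are genes of the large (green) and small (orange) subunit and the triangle is Mrps36; Mrpl47 (3.12 and 2.69) and Mrpl33 (1.30 and 2.54) stand above the rest in study 1, and 60 of 74 points lie in the upper right or lower left. In study 2 several genes lie further right than Mrpl33, among them Mrpl41 (1.98), and on the deposited scale Mrpl33 is at -0.44 there.

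Mrpl44 encodes a large subunit protein of the ribonuclease III fold. In study 2 its captured specimens ranged from 7.06 over a median of 10.16 to 10.44 (n = 15) and its whole sections from 7.91 over 8.79 to 9.41 (n = 15). The groups overlapped through a single captured specimen, that of day 49 which holds the array that stood apart, whose value was 10.05 and above all whole sections without that array, and 14 of 15 specimens with both tissue types were higher in captured cells. In study 1 captured specimens ranged from 9.16 over 9.94 to 10.48 (n = 15) and whole sections from 7.17 over 8.60 to 8.96 (n = 8), without overlap. The difference was 1.21 (SE 0.18, limma adjusted p = 3.1e-07) in study 2, with -0.22 on the deposited scale, and 1.65 (SE 0.26, limma adjusted p = 1.3e-06) in study 1. Its other probe sets gave 1.05 and 0.08 in study 2 and 1.80 and 0.69 in study 1.

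Mrpl41, a protein of the large subunit specific to mitochondria, had a larger difference in study 2 than in study 1 (interaction 1.49, SE 0.33, limma adjusted p = 0.00028), but on the deposited scale that interaction did not pass (adjusted p = 0.092). Captured specimens ranged from 9.70 over 10.75 to 11.21 there and whole sections from 7.74 over 8.67 to 10.22, which overlap from 9.70 to 10.22, and all 15 specimens with both tissue types were higher in captured cells. The difference was 1.98 (SE 0.18, limma adjusted p = 1.7e-12), positive on the deposited scale as well (0.53). Without the array that stood apart the lowest captured specimen was 10.24, above all whole sections. In study 1 captured specimens ranged from 9.19 over 9.82 to 10.28 and whole sections from 7.99 over 9.13 to 9.71, which overlap from 9.19 to 9.71. The difference was 0.65 (SE 0.26, limma adjusted p = 0.027), and on the deposited scale it was 0.094 and did not pass (limma adjusted p = 0.77).

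Mrpl57, another large subunit protein specific to mitochondria, ranged from 8.08 over 10.64 to 11.47 in captured specimens and from 8.67 over 9.56 to 11.26 in whole sections of study 2, which overlap widely, with a lowest captured specimen of 9.70 without the array that stood apart. It did not overlap in study 1 (10.73 over 11.19 to 11.69 against 8.03 over 9.50 to 10.53). Its differences were 1.02 (SE 0.24, limma adjusted p = 0.00024), with -0.30 on the deposited scale, and 1.77 (SE 0.34, limma adjusted p = 2.5e-05).

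Mrps24 is the small subunit gene among these 6. It was 9.10 over 10.70 to 11.15 in captured specimens and 9.05 over 9.46 to 11.07 in whole sections of study 2, and 10.14 over 10.61 to 11.29 and 8.00 over 8.80 to 9.82 in study 1, where the groups did not overlap. Without the array that stood apart the lowest captured specimen of study 2 was 10.02. The differences were 0.94 (SE 0.17, limma adjusted p = 6.2e-06) and 1.72 (SE 0.24, limma adjusted p = 1.2e-07). On the deposited scale Mrps24 passed as lower in study 2 (-0.42, limma adjusted p = 0.025). Another probe set of Mrps24 went the other way in study 2 (-0.58, limma adjusted p = 0.0033) and the same way in study 1 (0.98), so its direction in study 2 depends on the probe set.

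Mrpl20 and Mrpl36, large subunit genes with bacterial counterparts, were higher in captured cells in each study. Mrpl20 was 6.89 over 9.81 to 10.20 in captured specimens and 7.25 over 8.08 to 9.17 in whole sections of study 2, and 8.68 over 9.10 to 9.62 and 7.08 over 7.58 to 8.70 in study 1. Its differences were 1.46 (SE 0.18, limma adjusted p = 4.2e-09), with -0.04 on the deposited scale, and 1.17 (SE 0.26, limma adjusted p = 0.00018). Mrpl36 was 8.06 over 9.11 to 9.63 and 7.16 over 7.76 to 8.70 in study 2, and 8.33 over 9.08 to 9.89 and 6.73 over 7.95 to 8.51 in study 1. Its differences were 1.27 (SE 0.14, limma adjusted p = 3.2e-10), with -0.37 on the deposited scale, and 1.13 (SE 0.20, limma adjusted p = 7.9e-06), and all 15 and all 5 specimens with both tissue types were higher in captured cells. The ranges of both genes overlapped between the tissue types in each study, but for Mrpl20 in study 2 not without the array that stood apart, where its lowest captured specimen was 9.40. On the deposited scale neither gene passed as higher in study 1, with 0.48 (limma adjusted p = 0.084) for Mrpl20 and 0.45 (adjusted p = 0.079) for Mrpl36. In study 2 on that scale Mrpl20 did not pass, and Mrpl36 passed as lower in captured cells (limma adjusted p = 0.025).

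The single gene past the threshold as lower in captured cells in both studies was Mrps6, of the small subunit. It was 5.47 over 6.00 to 6.64 in captured specimens and 5.46 over 6.33 to 7.30 in whole sections of study 2, and 5.37 over 5.71 to 6.16 and 5.66 over 6.17 to 6.58 in study 1. These are low levels, as the median of all genes in a specimen was near 6.2 on this scale. The ranges overlapped in both, and the differences were -0.34 (SE 0.12, limma adjusted p = 0.011) and -0.53 (SE 0.17, limma adjusted p = 0.0078). With the 3′ to 5′ covariate the difference was 0.19 in study 2 and did not pass the threshold in either study. Differences below 0 in both studies were also found for Mrpl10, Mrpl24, Mrpl48 and Mrpl9, which were looked up after their values were seen and did not pass in both. Another probe set of Mrpl48, above the array median in all 53 averages, was higher in captured cells in study 2 (0.76, limma adjusted p = 1.1e-07) and study 1 (0.59, adjusted p = 0.0013). The direction of Mrpl48 therefore depends on the probe set. Mrpl10 passed in study 2 (-0.76, limma adjusted p = 1e-07) and had -0.30 (adjusted p = 0.095) in study 1.

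The studies differed for part of the family, at a smaller share than among all genes. The tissue difference over the 4 days that both studies share differed between them for 29 of the 74 genes (39.2%) by the limma interaction. Among all genes 44.9% did. The captured minus whole value was more positive in study 2 for 9 of the 29 and in study 1 for 20. Without the array that stood apart these counts were 12 and 24, and 26.7% and 25.7% of all genes went each way. Mrpl33 was among the 29 genes as a matter of description, with a difference between the studies of -1.23 (SE 0.18), and Mrpl47 had 0.50 (SE 0.29). There were 7 genes (9.46%, against 7.9% of all genes) that passed the threshold in opposite directions, all of them lower in captured cells of study 2 and higher in study 1: Mrpl37, Mrpl54, Mrpl16, Mrpl2, Mrpl18, Mrpl4 and Mrps18b. On the deposited scale none of these 7 passed as higher in study 1, where their differences ran from -0.07 for Mrpl37 to 0.24 for Mrpl18. With median-centred arrays 5 of the 7 did not pass in study 2, namely Mrpl16 (-0.16), Mrpl2 (-0.21), Mrpl4 (-0.06), Mrps18b (-0.06) and Mrpl18, which turned to 0.07. The differences below are on the quantile-normalized log2 scale.

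Mrpl37, of the large subunit and specific to mitochondria, was 6.70 over 7.82 to 8.42 in captured specimens and 7.77 over 8.35 to 9.59 in whole sections of study 2, and 7.05 over 7.98 to 8.34 and 6.48 over 7.17 to 7.74 in study 1. Its difference was -0.77 (SE 0.12) in study 2 and 0.72 (SE 0.17) in study 1, with -0.07 in study 1 on the deposited scale, and the interaction was -1.58 (SE 0.21, limma adjusted p = 1.5e-07). Captured cells were lower in 14 of the 15 specimens of study 2 with both tissue types and higher in all 5 of study 1.

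Mrpl54 was 5.29 over 6.35 to 7.09 and 5.83 over 7.00 to 7.97 in study 2, and 6.25 over 6.78 to 7.37 and 5.43 over 5.84 to 6.68 in study 1, for captured specimens and whole sections in turn. The differences were -0.76 (SE 0.16) and 0.84 (SE 0.22), with an interaction of -1.56 (SE 0.29, limma adjusted p = 2.6e-05). Mrpl16, a large subunit protein with a bacterial counterpart, had -0.52 (SE 0.14) and 0.73 (SE 0.20), with an interaction of -1.16 (SE 0.25, limma adjusted p = 0.00021). Mrpl2, a large subunit protein near the site of peptide bond formation, had -0.57 (SE 0.14) and 0.74 (SE 0.20), with an interaction of -1.16 (SE 0.26, limma adjusted p = 0.0003). The interaction kept its sign and stayed past the threshold for these 4 genes on the deposited and the median-centred scale and with the 3′ to 5′ covariate.

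Specimen by specimen, the family median of captured minus whole was positive in 14 of the 15 specimens of study 2 with both tissue types and in all 5 of study 1, on the quantile-normalized log2 scale. In study 2 it was 0.18, 0.56 and 0.21 at day 7, 0.58, 0.48 and 0.21 at day 17, 1.14, 1.04 and 1.00 at day 33, 0.09, -1.29 and 1.26 at day 49, and 0.77, 0.43 and 0.27 at day 105. The 3 specimens of day 33 were above all others but 1 of day 49, and the 3 of day 49 spread from the lowest to the highest value. The specimen at -1.29, in which 18 of 74 genes were higher in captured cells, holds the array that stood apart, and without that array its median was -0.28, with 28 of 74 higher. In study 1 the median was 0.80 at day 7, 0.70 at day 17, 0.91 and 0.92 at day 33 and 0.55 at day 104, with 67 to 70 of 74 genes higher in each specimen. A set of 10 genes (13.5%) was higher in captured cells in all 15 and all 5 specimens, where 4.88% of all genes were: Mrpl11, Mrpl22, Mrpl28, Mrpl32, Mrpl33, Mrpl36, Mrpl41, Mrpl47, Mrps9 and Mrps30. Of these, Mrpl11 (0.19, limma adjusted p = 0.26), Mrpl32 (0.41, adjusted p = 0.094) and Mrps30 (0.25, adjusted p = 0.24) did not pass the threshold in study 1. Other probe sets of Mrpl11 above the filter gave -0.34 and 0.52 in study 2 and 0.38 and 1.26 in study 1, the last past the threshold (limma adjusted p = 2e-10). In study 1 those of Mrps9 gave 0.97, -0.40 and 1.25, and that of Mrpl41 gave 0.37 (limma adjusted p = 0.18). Mrpl10 alone (1.35%) was lower in all 20, where 5.62% of all genes were, and Mrps6 was lower in 12 of 15 and 5 of 5.

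**Figure D3:**
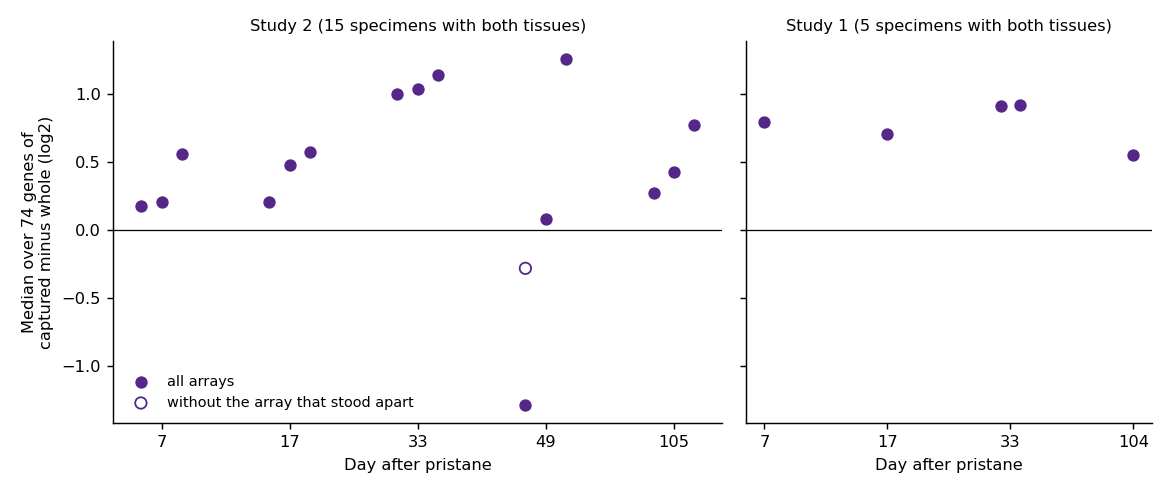
Median over the 74 genes of captured minus whole (vertical axis, quantile-normalized log2) in each specimen with both tissue types, by day after pristane (horizontal axis), in study 2 (left, 15 specimens) and study 1 (right, 5 specimens). Filled circles use all arrays and the open circle leaves out the array that stood apart. Values run from -1.29 to 1.26 in study 2 and from 0.55 to 0.92 in study 1; on the deposited scale the family's median difference is -1.15 in study 2.

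The direction of the family depended on how the arrays were scaled, and its place above the median gene less so. The family median lay above the median of all genes on the quantile-normalized, median-centred (0.73 against 0.19 in study 2 and 0.83 against 0.14 in study 1) and deposited scales. With the 3′ to 5′ covariate over all arrays it did not lie above it in study 2, and it did when the array that stood apart was also left out. In study 1 it lay above it with the covariate, at 0.38 against -0.11.

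**Figure D4:**
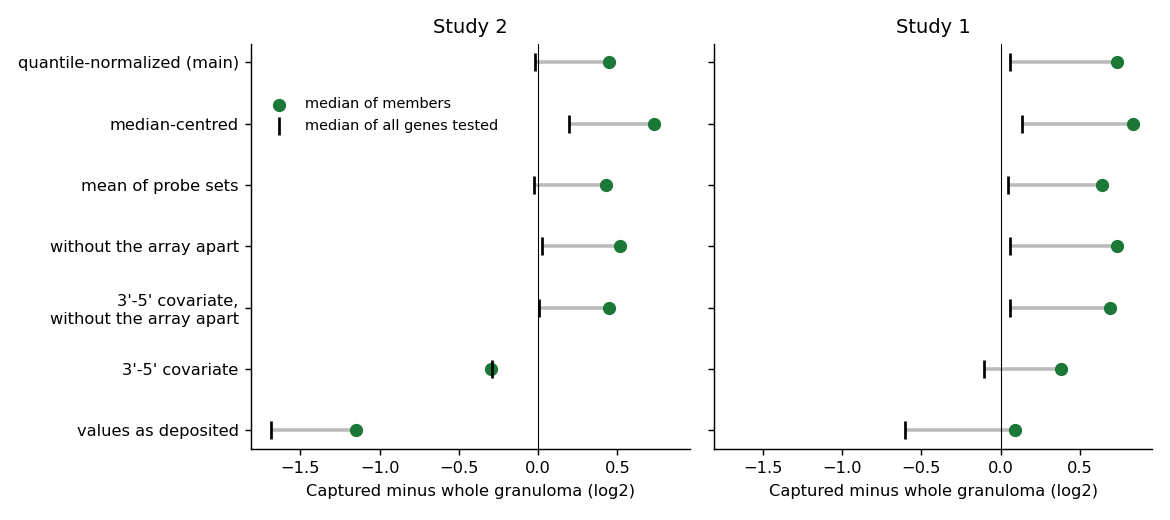
Median captured minus whole difference (horizontal axis, log2) of the 74 genes (circles) and of all genes tested (ticks) in study 2 (left) and study 1 (right) under 7 ways of scaling, fitting or selecting arrays (rows). The circle lies to the right of the tick in each row except that of the 3′ to 5′ covariate with all arrays in study 2, where they are at -0.30 and -0.29.

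Other gene lists of translation and the respiratory chain held genes that rose and genes that fell, and their counts are to be read against the shares of all genes, 34.4% higher and 35.4% lower in study 2 and 31.5% and 29% in study 1. Cytosolic ribosomal protein genes, which build the ribosome outside mitochondria, were higher in 14 (33.3%) and lower in 8 of 42 in study 2 (median difference 0.06) and higher in 19 and lower in 1 in study 1 (0.28), on the quantile-normalized log2 scale. Rpl27a was higher by 1.77 (SE 0.18, limma adjusted p = 3e-11) and 1.24 (SE 0.25, adjusted p = 6.8e-05), and Rpl12 by 1.45 (SE 0.20, limma adjusted p = 6.5e-08) and 1.40 (SE 0.29, adjusted p = 8e-05). Genes of the respiratory chain and ATP synthase were higher in 30 (37.5%) and lower in 17 of 80 in study 2 (0.15) and higher in 39 and lower in 5 in study 1 (0.52). Subunits of the same ATP synthase went apart: Atp5g1, of the membrane ring, was higher by 1.40 and 1.61, and Atp5b, of the catalytic head, differed by -1.90 and -1.07. The shares of genes higher in study 2 were near that of all genes for both lists, and the difference between the family and these lists was not tested.

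The shorter lists hold few genes, and their counts have the same background. Of 4 mitoribosomal subunits that carry other names, 3 were higher in study 2 and 2 in study 1, with Chchd1 at 1.56 and 1.36 and Gadd45gip1 at 0.99 and 1.41. Of 16 genes for ribosome assembly and rRNA modification, 8 were higher and 2 lower in study 2 and 11 higher and 2 lower in study 1. Fastkd2, needed for assembly of the large subunit, was higher by 1.45 and 1.10, and Nsun4, an rRNA methyltransferase, differed by -0.92 and -1.15. Of 6 translation factors, 3 were higher and 3 lower in study 2 and 2 and 2 in study 1. Mtres1, which rescues stalled ribosomes, was higher by 0.94 and 0.57, and Tufm, the elongation factor that brings charged tRNA, differed by -0.97 and -0.49. Of 11 genes for charging mitochondrial tRNA, 6 were higher and 2 lower in study 2 and 5 and 1 in study 1, with Qrsl1 at 0.41 and 1.47 and Hars2 at -0.67 and -0.76. Of 8 genes for mitochondrial transcription and RNA, 6 were higher and 1 lower in study 2 and 2 and 0 in study 1, with the RNA-stabilizing Slirp at 1.56 and 1.28 and the transcription factor Tfb2m at 0.33 and 1.09. Of 7 nuclear regulators, 3 (42.9%) were higher and 1 lower in study 2 and 3 and 0 in study 1. Nrf1, whose site was searched in the promoters, was higher by 0.40 (SE 0.12, limma adjusted p = 0.0045) and 1.61 (SE 0.18, adjusted p = 7.7e-10), and the coactivator Pprc1 by 0.83 and 0.66. Of the 2 genes tested for membrane insertion and translational activation, 1 was lower in study 2 and neither passed the threshold in study 1.

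Days were compared within each study and tissue type on the deposited log2 scale. In whole granuloma 15 of the 74 genes passed the moderated F test over the 5 days, where 24.4% of all genes did, and in captured cells 5 did, where 15.2% did. In study 1 none of the 74 passed in captured cells (0.594% of all genes) or in whole granuloma (0.0349%) by the limma F test. At an unadjusted p under 0.05, 1 and 1 of the 74 passed, and 882 and 273 of the 8592 genes. Day 104 of study 1 is 1 specimen in each tissue type and its whole granuloma has 1 to 3 specimens a day, so these counts say little about change over days. The members' shares were 20.3% and 6.76% in study 2. Without the array that stood apart the counts in study 2 were 34 of 74 in whole granuloma (3072 of 8592 genes) and 3 in captured cells (1330 genes). The family's share in whole granuloma then lay above that of all genes, and with all arrays it lay below.

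The 4 genes with the widest range of day means in whole granuloma of study 2 were Mrps25, Mrpl47, Mrps26 and Mrpl27, and all had their lowest mean at day 33. Mrps25, a small subunit protein, was 8.98, 9.01 and 9.37 at day 7 and 6.69, 7.72 and 7.72 at day 33, a range of day means of 1.74 (limma F, adjusted p = 0.00093). Its day 7 and day 33 sections did not overlap, and at day 105 it was 7.56, 7.56 and 8.00. Mrpl47 was 8.81, 8.99 and 9.04 at day 7, 6.73, 7.43 and 7.56 at day 33 and 7.63, 9.14 and 9.45 at day 49, a range of 1.71 (limma F, adjusted p = 0.012). In captured specimens its day means had a range of 0.26 (limma F, adjusted p = 0.98), and the difference between the tissue types in this was not tested.

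Mrps26, also of the small subunit, was 10.40, 10.43 and 10.72 at day 7 and 8.86, 8.98 and 9.00 at day 33, a range of 1.57 (limma F, adjusted p = 0.044). Mrpl27, a large subunit protein with a bacterial counterpart, was 10.28, 10.65 and 10.75 at day 7, 8.90, 9.34 and 9.38 at day 33 and 9.57, 11.01 and 11.47 at day 49, a range of 1.48 (limma F, adjusted p = 0.013). Mrpl33 passed as well, with 8.05, 8.10 and 8.10 at day 33 against 8.70, 8.96 and 9.33 at day 7 (range 0.95, limma F, adjusted p = 0.0076). At day 49 the 3 whole sections of Mrpl47 and Mrpl27 spread more widely than at any other day (SD 0.97 and 0.99).

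Of the 5 genes that passed in captured cells of study 2, Mrps14 (range 1.53, limma F, adjusted p = 0.034) and Mrps31 (1.25, adjusted p = 0.04) had their lowest mean at day 49 through 1 specimen, at 8.20 against 10.94 and 11.18 for Mrps14 and at 5.81 against 7.82 and 7.84 for Mrps31. That specimen holds the array that stood apart, and without the array neither passed (limma F, adjusted p = 0.12 and 0.071). Mrpl37 (1.15, limma F, adjusted p = 0.034) and Mrps18a (1.12, adjusted p = 0.0099) were lowest at day 17, at 6.41, 6.91 and 7.19 for Mrpl37 and at 6.88, 7.40 and 7.94 for Mrps18a. They passed without that array too (limma F, adjusted p = 0.016 and 0.024). Mrpl37 was highest at day 33, at 7.82, 7.87 and 8.26, and its day 17 and day 33 specimens did not overlap. Mrps18a, a paralog of the small subunit protein family Mrps18 that sits in the large subunit, was 8.15, 8.52 and 8.83 at day 33.

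**Figure D5:**
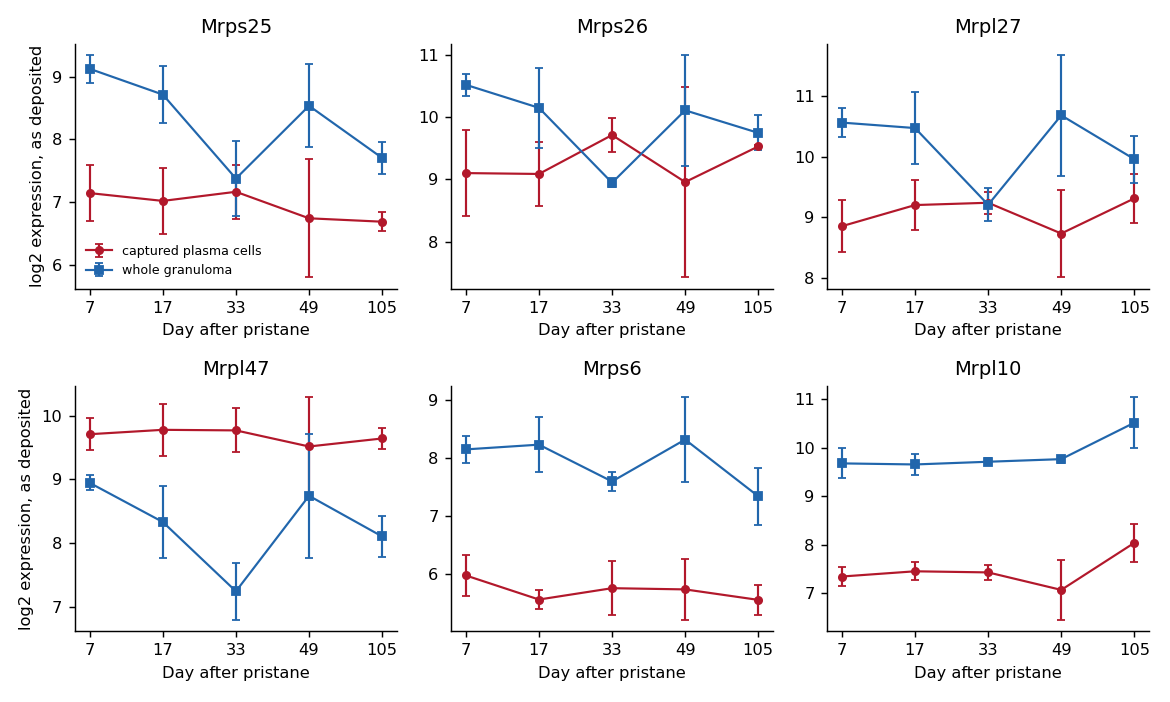
Mean ± SD (n = 3 specimens) of 6 genes by day after pristane (horizontal axis) in study 2, as deposited log2 expression (vertical axis), with circles for captured plasma cells and squares for whole granuloma. In whole granuloma Mrps25, Mrps26, Mrpl27 and Mrpl47 have their lowest mean at day 33, at 7.38, 8.95, 9.21 and 7.24, Mrps6 is lowest at day 105 (7.34) and Mrpl10 is highest at day 105 (10.52). The captured means at day 49 include the array that stood apart.

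Between day 7 and day 105 of study 2, nearly all of the family stayed below the threshold. In captured cells none of the 74 genes was higher or lower, where 4.45% and 2.37% of all genes were (limma). At an unadjusted p under 0.05, 6 of the 74 were higher and 0 lower, and 1747 of the 8592 genes passed in either direction. The family's share there was below that of all genes. In whole granuloma 1 gene was higher, where 6.05% of all genes were, and 2 were lower, where 12.9% were. Mrpl10, a protein of the stalk that recruits translation factors, was 9.36, 9.69 and 9.98 at day 7 and 9.91, 10.82 and 10.83 at day 105 (difference 0.84, SE 0.25, limma adjusted p = 0.015). Mrps25 had a difference of -1.41 (SE 0.35, limma adjusted p = 0.0032). Mrps6 was 7.89, 8.22 and 8.35 at day 7 and 7.03, 7.09 and 7.91 at day 105 (difference -0.81, SE 0.27, limma adjusted p = 0.033). The groups of Mrpl10 and of Mrps6 overlapped by 1 section.

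Other probe sets of the same genes gave a check on the choice of 1 probe set each. There were 53 of them, of which 34 were above the filter on low values. Their median captured minus whole difference was 0.47 in study 2 and 0.71 in study 1 on the quantile-normalized log2 scale. For 24 of the 34 the chosen probe set had passed the threshold in study 2, and of these 14 passed in the same direction, 2 passed in the opposite one and 8 did not pass. In study 1 the base was 28, of which 16 passed in the same direction, 1 in the opposite one and 11 did not pass.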

How the data were processed

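The log2 values are as the authors deposited them, for 22690 probe sets on 82 arrays, with RMA and Partek named in the submitters' processing notes. Their versions were not given in the sources used here. RNA was amplified linearly before labelling, per the labels' protocols. The array medians differ between tissue types as deposited, and no source read here says at which step this arose. Of the probe sets, 20380 had 1 gene symbol, of which 20351 matched a current symbol by gene identifier, and 691 had several. Genes above the column median in 3 or more averages were tested, 8592 in all, with all 74 of the family. The specimen code is the number in the array titles, with letters and suffixes after it ignored.

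All 53 averages entered 1 fit of study, tissue type and day with limma 3.58.1 in R 4.3.3 (34 residual degrees of freedom), with the specimen as a random block (correlation 0.11 on quantile-normalized and 0.12 on deposited values). The Benjamini-Hochberg adjustment ran over all genes tested, with a threshold of 0.05. The tissue contrast weighted the days of a study equally. Tissue contrasts used quantile-normalized values and day tests the deposited ones. The procedure was tested on simulated data. The genes named have the largest mean differences among those called in each study, up to 6 in each direction, up to 4 with opposite signs, up to 4 with the widest range of day means in each day test and up to 2 of each other list. The family, the lists and this rule were chosen with earlier results of these data known. Alternatives were the scaling, the 3′ to 5′ covariate, the filter, the block, the probe set rule and leaving out specimens, days or 1 array. Protein sequences were not used here.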

Additional observations from a re-analysis of the deposited data

Results flagged for a closer look

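Among 30 combinations of a group of 4 to 10 arrays with the family median, Mrpl47 or Mrpl33, 9 had an array far from the others of its group, where chance gives about 1 in 20 groups of independent values. Arrays of a group are in part repeats of 1 specimen, all 5 at day 104 of study 1, and measures share arrays, so that rate is only a guide. All groups examined were of captured cells, since those of whole granuloma held fewer than 4 arrays and were not examined. The values are deposited log2 levels of single arrays of captured cells. The family median was 5.75 in array 4 of day 49 of study 2 (next array 8.24), 7.60 in array 1 of day 7 of study 2 (next 8.72), 6.87 in array 4 of day 33 of study 1 (next 8.15) and 8.58 in array 4 of day 17 of study 1 (next 8.26). Mrpl47 was 8.29 in array 4 of day 33 of study 2 (next 9.86), 10.10 in array 2 of day 105 of study 2 (next 9.71), 7.62 in array 4 of day 33 of study 1 (next 8.59), 8.06 in array 5 of day 7 of study 1 (next 9.09) and 8.43 in array 4 of day 104 of study 1 (next 8.82). In array 4 of day 33 of study 1, the family median and Mrpl47 were low together.

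The tissue difference differed between the studies, by the limma interaction (study 2 minus study 1, quantile-normalized log2), for 5 of the named genes: Mrpl37 by -1.58, Mrpl54 by -1.56, Mrpl16 by -1.16, Mrpl2 by -1.16 and Mrpl41 by 1.49 (SE 0.33, limma adjusted p = 0.00028). For Mrpl33 the value was -1.23, given as a description. The sign was negative for 5 of these 6 and positive for Mrpl41, and for Mrpl41 it did not pass the threshold on the deposited scale.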

How the results depend on the processing

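On the deposited values, study 2 gave 2 genes of the family higher and 63 lower in captured cells (0.512% and 96.3% of all genes), study 1 gave 15 and 8 (7.67% and 60.2%), and 55 differed between the studies (72.5%). The family median turned to -1.15 in study 2 and moved to 0.094 in study 1, and Mrpl33 in study 2 turned to -0.44. On the same scale the median of all genes moved to -1.68 in study 2 and -0.60 in study 1. Median centring gave 5 lower in study 2 and 1 lower in study 1. With the 3′ to 5′ covariate, 9 were higher in study 2, and 23 higher and 1 lower in study 1, the study 2 median turned to -0.30, the study 1 median was 0.38, and the days of captured cells of study 2 gave 3. With that covariate and without the array that stood apart, a setting added after the data were seen like the omission of that array alone, study 2 gave 11 higher and 1 lower, study 1 gave 1 lower, and the days of study 2 gave 2 in captured cells and 34 in whole granuloma. The omission of that array alone gave 3 and 34. Both tissue types share 1 estimate of each gene's spread in the fit, so an array of captured cells also enters the tests of whole granuloma. The cause of the shifts in counts was not tested.

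The mean of all probe sets gave 8 for the days of captured cells of study 2. Leaving out day 104 gave 4 lower in study 1, and the title date as a block gave 12 genes for the days of captured cells of study 1 (1875 of all genes), over arrays and not specimens. From day 7 to day 105 in whole granuloma of study 2, quantile normalization, median centring and the mean of probe sets each gave 3 higher and 1 lower, the covariate gave 2 higher, and leaving out the array gave 2 higher and 5 lower, or 2 higher with the covariate. In captured cells the covariate gave 1 higher and leaving out the array 2 higher. With a fixed replicate block over the specimens with both tissue types, 41 were higher and 9 lower in study 2 and 41 higher and 0 lower in study 1, and with no replicate block 43 and 10, and 52 and 2. Each code and letter of study 2 as a specimen, added after the data were seen, gave 46 higher and 12 lower in study 2 and 2 higher from day 7 to day 105 in whole granuloma. The filter and treating code 5 as separate specimens moved no result by over 1.5 times. Counts in this section that stand without a share of all genes show how a count moved, and not the family's place among all genes. That share moves with the setting too: the genes higher in study 2 went from 34.4% to 38.3% of all genes without the array that stood apart.

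Leaving out each specimen in turn gave 40 to 50 genes higher and 9 to 13 lower in study 2, 46 to 58 higher and 2 to 4 lower in study 1, and 27 to 36 for the difference between studies. The family median ranged from 0.32 to 0.56 in study 2 and from 0.68 to 0.80 in study 1. The day tests of study 2 were unstable, at 1 to 27 genes in captured cells, with 27 without specimen 1 or 3 of day 49 and 1 without specimen 2 or 3 of day 105, and at 5 to 35 in whole granuloma, with 5 without specimen 3 of day 33, 31 without specimen 2 and 35 without specimen 3 of day 49. From day 7 to day 105 the ranges were 0 to 3 higher and 0 lower in captured cells and 0 to 5 higher and 1 to 5 lower in whole granuloma. In study 1 the day tests gave 0 in each. The number of specimens a day limits the precision of the day comparisons.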
